A study of Arabidopsis thaliana with 4 samples.

Results

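The aquaporin family of Arabidopsis thaliana was followed as 35 genes of the PIP, TIP, NIP and SIP classes, identified by locus. Their gene spots were taken by locus identifier from every array, and all 35 were found among the 29030 loci that the array carries, on 80 probes. A brightness filter, passed by 22690 genes in all, left 32 aquaporin genes for testing. Gene names follow the family's systematic numbering, with a hyphen where Arabidopsis convention has a semicolon. Some of these genes have older RefSeq symbols, such as GAMMA-TIP for TIP1-1, DELTA-TIP for TIP2-1, NLM1 for NIP1-1 and RD28 for PIP2-3.

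Seedlings of the wild-type ecotype Col-0 were kept at the top of vertical plates. In the exposed group the bottom of the plate held Pseudomonas syringae DC3000, a leaf pathogen, so that plants received its volatiles (microbial volatile organic compounds, mVOCs) through the shared air. Control plates of the same ecotype carried no bacteria, and no other genotype or agent was used in either group. The series text puts growth at 8 days and exposure at 12 hours, while the sample labels say 12 days, a discrepancy that the sources used here do not settle. RNA was compared on 4 two-colour arrays, each with control RNA in Cy3 and exposed RNA in Cy5. The dyes were never swapped, so dye preference of a probe and an effect of exposure cannot be told apart. No label says that the RNAs came from separate sets of plants, so p-values measure the spread between 4 arrays, which may be technical.

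Aquaporins are membrane channels that let water, and in some members small neutral solutes such as hydrogen peroxide, ammonia, urea, glycerol or boric acid, pass along a gradient. Plasma membrane intrinsic proteins (PIPs) carry much of the water that enters and leaves plant cells, and tonoplast intrinsic proteins (TIPs) do the same at the vacuole. Nodulin-like intrinsic proteins (NIPs) mainly move small solutes, including metalloids, and small basic intrinsic proteins (SIPs) lie in the endoplasmic reticulum. PIP channels that admit hydrogen peroxide have been linked to stomatal closure and to immune responses of Arabidopsis leaves against bacteria.

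Array 4 was brighter than the other arrays, with a median gene spot of 575.5 scanner units for control RNA and 1286 for exposed RNA. On the other arrays this median was 292 to 362.5 for control RNA and 336 to 373 for exposed RNA. Log2 ratios correlated across all tested genes, which do not count as independent replicates, at r = 0.648 to 0.779 between arrays 1, 2 and 3. Array 4 correlated with each of them at 0.221 to 0.288. Over the 32 aquaporin genes the corresponding ranges were 0.751 to 0.779 and 0.515 to 0.709. Arrays 1 and 2 shared 1 slide and scan and arrays 3 and 4 another. The number of arrays limits the precision of every value.

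Exposed seedlings had more signal than controls for 4 of the 32 tested aquaporin genes, and for none was a lower signal called. The 4 were the tonoplast channels TIP2-3 and TIP1-1, the plasma membrane water channel PIP2-4 and the solute channel NIP1-1. Their increases were small, from 1.31-fold to 1.49-fold. Across all 22690 genes, 3.4% were called in either direction, 1.58% higher and 1.82% lower, at an adjusted p below 0.05 by limma, adjusted by Benjamini-Hochberg over all genes. The 12.5% of aquaporin genes called higher stands beside that 1.58% as a description, with no test of the list. In RNA from whole seedlings, a change in the number of cells that express a gene and a change in RNA per cell cannot be told apart.

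The median log2 ratio (exposed over control) of the 32 genes was 0.08, against -0.0046 for all tested genes. Of the 32, 21 lay above 0 (65.6%), against 49.0% of all genes. Leaving out NIP2-1, which was at background in control RNA on 3 arrays, 20 of 31 lay above 0. The family's median was 0.10, 0.10, 0.07 and -0.02 on arrays 1 to 4, beside all-gene medians of 0.0069, 0.0080, 0.0081 and -0.068. The family thus sat slightly above the array's middle on each array. A single sign on every array was seen for 14 members, 11 of them positive (13 and 10 without NIP2-1), while 37.9% of all genes kept 1 sign and 17.2% were positive throughout. The median half-width of a member's 95% interval was 0.17 on the log2 scale. With 4 arrays, differences smaller than this could mostly not be told from 0 even before adjustment. A call took more: the smallest called ratio was 0.39 (NIP1-1, limma adjusted p 0.0401), and TIP2-1 at 0.40 was not called (0.0502).

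**Figure D1:**
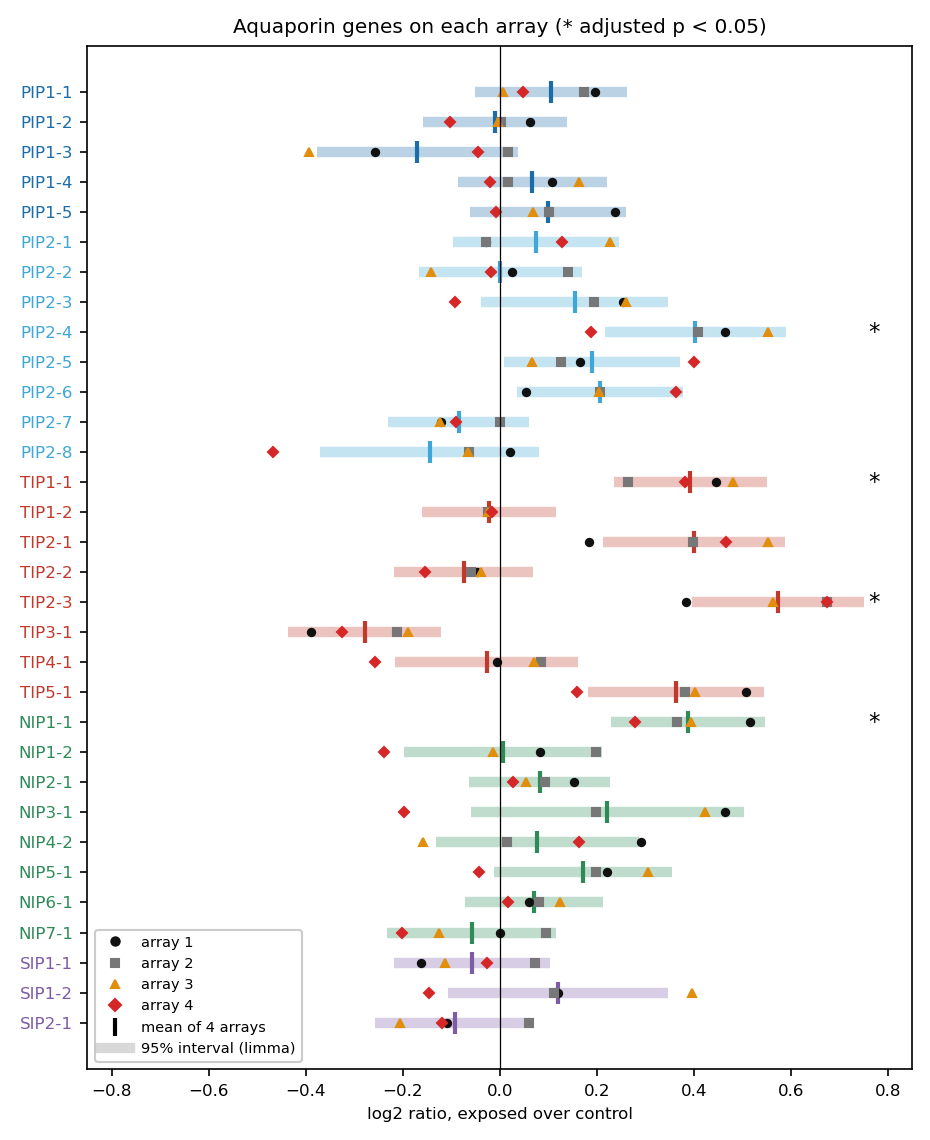
Log2 ratio of exposed over control for each of the 32 tested aquaporin genes (1 line per gene, coloured by class), with 1 point per array, a tick for the mean and a band for the 95% limma interval. The 4 starred genes (PIP2-4, TIP1-1, TIP2-3 and NIP1-1) have all 4 arrays above 0, and array 4 lies apart from the other arrays for several others, such as NIP3-1 and PIP2-8. NIP2-1 is drawn although its control signal was at background on 3 arrays.

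Among the tonoplast channels, 2 of 8 tested genes rose. Of the 8, 4 lay above 0 and 4 below. The class median of 0.17 falls in the gap between TIP1-2 at -0.02 and TIP5-1 at 0.36. That median was 0.018 after averaging the probes of a gene, 0.021 without the brightness filter, 0.11 from the scanner software's log ratio and 0.35 after median centring. TIP2-3 (AT5G47450), a vacuolar channel of the subgroup known to conduct ammonia, had the largest ratio in the family. Its normalized control signal was 2682, 2765, 2871 and 2835 on arrays 1 to 4, and its exposed signal was 3501, 4416, 4242 and 4525. Every exposed value was above every control value. Here and for the other called genes, such a separation lies on the arrays that gave the call, so it is no separate support. The log2 ratios of TIP2-3 were 0.38, 0.68, 0.56 and 0.67. Their mean was 0.57 (SE 0.074, n = 4), or 1.49-fold, with a limma adjusted p of 0.0246. A second, dimmer probe of TIP2-3 gave 0.34, 0.33, 0.40 and -0.14, with a mean of 0.23 and an adjusted p over all tested probes of 0.227 by limma. It shared the sign on arrays 1 to 3 only.

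TIP1-1 (AT2G36830), among the most abundant vacuolar water channels of Arabidopsis, had a control signal of 88496, 77796, 87203 and 88466 on its brightest probe. The exposed signal of the same probe was 120519, 93462, 121624 and 115353. Exposed exceeded control on each array without overlap of the groups. The mean log2 ratio was 0.39 (0.45, 0.26, 0.48 and 0.38; SE 0.066, n = 4), or 1.31-fold, with a limma adjusted p of 0.0394. The call belongs to this probe alone. The other 3 tested probes of TIP1-1 averaged 0.11, -0.24 and -0.25, and the mean of all 4 probes was 0.0035 with a limma adjusted p of 0.973. With each array centred on its median in place of the brightness-dependent loess curve, the brightest probe read 0.70, and the scanner software's own log ratio gave 0.25 without a call.

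TIP2-1 (AT3G16240), a close relative of TIP2-3, had log2 ratios of 0.18, 0.40, 0.55 and 0.47. All 4 arrays were positive, array 1 least. The mean of 0.40 (SE 0.078, n = 4) missed the threshold narrowly, with a limma adjusted p of 0.0502. All 5 of its tested probes had positive means, from 0.10 to 0.40, and its fourth-brightest probe, at 0.38, was called over all tested probes with a limma adjusted p of 0.0431. Median centring gave 0.73 with a call, while the scanner software's log ratio gave 0.25 and the mean of the gene's probes 0.27, neither called.

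The probes of TIP1-1 and TIP2-1 are among the brightest on the array. Above a mean brightness of 16 (log2 scanner units) there were 163 genes, whose median log2 ratio was 0.13, with 20.9% called higher. Of the genes between 9 and 13, where TIP2-3, PIP2-4 and NIP1-1 lie, 1.58% were called higher. The aquaporins numbered 3 in the bright band, where TIP1-1 was called, and 13 in the middle band, where 3 were called. Among the 9 aquaporin genes between 13 and 16 and the 7 below 9, none was called. The part of brightness in the ratios of TIP1-1 and TIP2-1 was not tested.

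**Figure D2:**
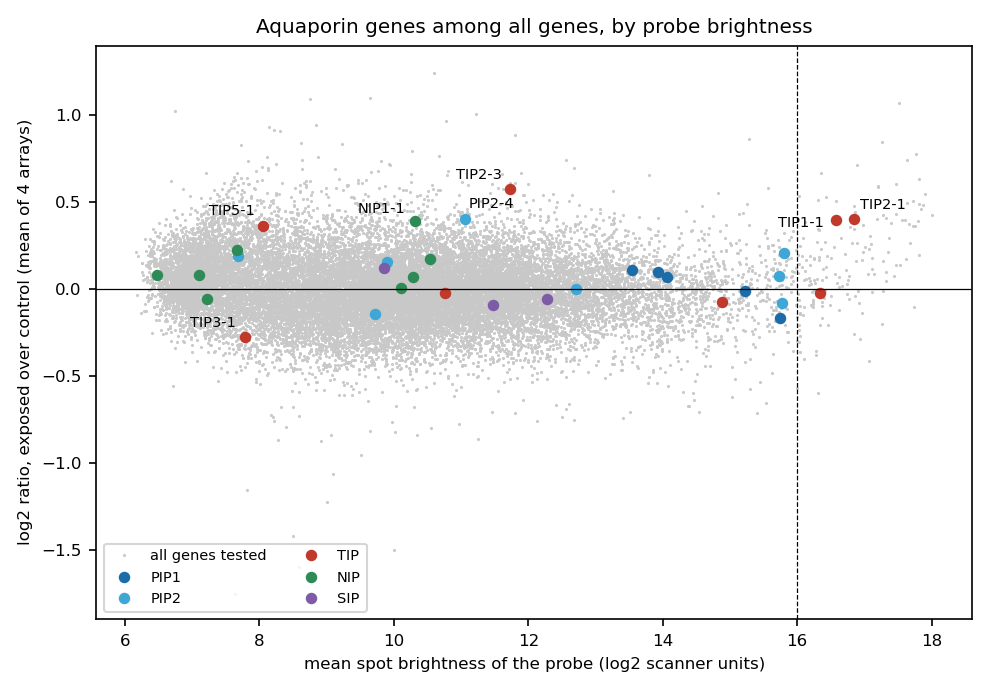
Mean log2 ratio of exposed over control (4 arrays) against mean probe brightness (log2 scanner units) for all 22690 tested genes (grey) and the 32 aquaporin genes (coloured by class). Aquaporin genes with an adjusted p below 0.1 are named, and the dashed line marks a brightness of 16, above which the 163 genes have a median ratio of 0.13.

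TIP1-2 (AT3G26520), a second abundant vacuolar channel, lies above the same brightness. Its ratio was -0.02 on each of the 4 arrays, and its 95% interval ran from -0.16 to 0.12. TIP5-1 (AT3G47440), known from pollen, had log2 ratios of 0.51, 0.38, 0.40 and 0.16. All were positive and array 4 was the lowest, and the mean of 0.36 (SE 0.076, n = 4) had a limma adjusted p of 0.0573. TIP3-1 (AT1G73190), known from the protein storage vacuoles of seeds, had -0.39, -0.21, -0.19 and -0.32. It was the lowest of the 32 at -0.28 (SE 0.066, n = 4), below 0 on every array, with a limma adjusted p of 0.0719. From the scanner software's log ratio TIP3-1 was called lower, at -0.44 (limma adjusted p 0.0349). TIP2-2 (AT4G17340) and TIP4-1 (AT2G25810), both known from roots, averaged -0.07 and -0.03. The value of TIP2-2 is that of its brightest probe. Its 4 tested probes ran from -0.19 to 0.37, with a mean of 0.03. Of the 8 tested TIP genes, 7 kept their sign from array to array, 4 of them positive.

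Among the NIPs, 1 of 8 tested genes rose, with a class median of 0.08. Of the 7 that were well above background in control RNA on 3 or more arrays, 6 had means above 0. NIP1-1 (AT4G19030), known as a route of arsenite into Arabidopsis roots, had control signals of 1053, 1141, 1168 and 1100 and exposed signals of 1506, 1469, 1535 and 1335. The exposed channel was higher on each array and the groups did not overlap. The log2 ratios were 0.52, 0.37, 0.39 and 0.28, with a mean of 0.39 (SE 0.066, n = 4), or 1.31-fold, and a limma adjusted p of 0.0401. NIP1-1 was read by 1 probe. It was not called with median centring (0.40), from the scanner software's log ratio (0.42) or without the brightness filter (0.39).

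NIP5-1 (AT4G10380), the boric acid channel of root uptake, had log2 ratios of 0.22, 0.20, 0.31 and -0.04. Arrays 1 to 3 were alike and array 4 lay near 0. Its mean of 0.17 (SE 0.077, n = 4) was not called, with a limma adjusted p of 0.226. NIP3-1 (AT1G31885), another channel linked to arsenite, had 0.46, 0.20, 0.42 and -0.20. Array 4 had the opposite sign to the other arrays, and the mean of 0.22 (SE 0.12, n = 4) had a limma adjusted p of 0.289. NIP6-1 (AT1G80760), which distributes boron in shoots, averaged 0.07, and NIP7-1 (AT3G06100), known from anthers, averaged -0.06. NIP1-2 (AT4G18910), linked to the uptake of aluminium malate, averaged 0.01, and NIP4-2 (AT5G37820), known from pollen, averaged 0.08. NIP2-1 (AT2G34390), a lactic acid channel induced by low oxygen, passed the filter through the exposed channel, where it was well above background on all 4 arrays, against array 4 only in control RNA. Its control level is therefore only an upper bound on arrays 1 to 3, and no ratio is drawn from it.

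Among the 8 PIP2 genes, all tested, only PIP2-4 rose, and the class median was 0.11. PIP2 proteins form water channels on their own. PIP2-4 (AT5G60660), known from roots and able to pass hydrogen peroxide in yeast, had control signals of 1966, 1812, 1922 and 1657 and exposed signals of 2712, 2405, 2821 and 1888. Exposed was above control on each array, though the exposed value of array 4 fell within the range of the controls. The log2 ratios of 0.46, 0.41, 0.55 and 0.19 averaged 0.40 (SE 0.078, n = 4), or 1.32-fold, with a limma adjusted p of 0.0482. The gene was read by 1 probe, and when p-values were adjusted over all tested probes instead of genes its limma adjusted p was 0.0509. PIP2-4 was not called with median centring (0.42), from the scanner software's log ratio (0.30) or without the brightness filter (0.40).

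PIP2-3 (AT2G37180), also known as the desiccation-induced RD28, had log2 ratios of 0.25, 0.19, 0.26 and -0.09. It was positive on arrays 1 to 3 and slightly negative on array 4, with a mean of 0.15 (SE 0.080, n = 4) and a limma adjusted p of 0.282. PIP2-2 (AT2G37170), a root water channel whose gene lies directly beside PIP2-3, averaged 0.0015. These neighbours are close in sequence, and how far their probes tell them apart was not tested. PIP2-1 (AT3G53420), a channel for water and hydrogen peroxide in guard cells, averaged 0.07, with a 95% interval from -0.10 to 0.25. PIP2-5 (AT3G54820) averaged 0.19 and PIP2-6 (AT2G39010) 0.21, each positive on all 4 arrays and not called, with limma adjusted p values of 0.188 and 0.144. The value of PIP2-6 is that of its brightest probe, and the mean of its 5 probes turned to -0.055. PIP2-7 (AT4G35100) averaged -0.08 and PIP2-8 (AT2G16850) -0.14, the latter with -0.47 on array 4 and values between -0.07 and 0.02 on the other arrays.

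None of the 5 PIP1 genes was called, and the class median was 0.07. PIP1 proteins generally need a PIP2 partner to reach the plasma membrane. PIP1-3 (AT1G01620) had log2 ratios of -0.26, 0.02, -0.39 and -0.05. Arrays 1 and 3 were low and arrays 2 and 4 near 0, and the mean of -0.17 (SE 0.086, n = 4) had a limma adjusted p of 0.272. The value rests on the brightest probe, since the mean over its 4 tested probes was 0.01 and median centring gave 0.07. PIP1-4 (AT4G00430), which carries hydrogen peroxide into leaf cells in immunity to bacteria, averaged 0.07 with a 95% interval from -0.09 to 0.22. PIP1-2 (AT2G45960), a major leaf and root PIP also linked to carbon dioxide transport, averaged -0.01 with an interval from -0.16 to 0.14. PIP1-1 (AT3G61430) and PIP1-5 (AT4G23400) averaged 0.11 and 0.10. The brightest probe of PIP1-1 was the lowest of its 3 tested probes. Their mean was 0.24, not called, with a limma adjusted p of 0.0674.

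The 3 SIP genes were not called either, and their median was -0.06, which turned to 0.10 when each gene's probes were averaged. SIP1-2 (AT5G18290) had log2 ratios of 0.12, 0.11, 0.40 and -0.15. Array 3 was high and array 4 below 0, with a mean of 0.12 (SE 0.094, n = 4), a limma adjusted p of 0.457, and -0.05 from the scanner software's log ratio. SIP1-1 (AT3G04090) averaged -0.06 and SIP2-1 (AT3G56950) -0.09.

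Of the family, 3 genes were not tested because their single probes were too dim. TIP1-3 (AT4G01470), known from pollen, and NIP4-1 (AT5G37810), the direct neighbour of NIP4-2 and also known from pollen, exceeded the background on array 4 only, in both channels. TIP3-2 (AT1G17810), a seed vacuole channel like TIP3-1, exceeded it on array 4 for control RNA, and for exposed RNA on array 1 as well. On arrays where a probe is not well above background it gives only an upper bound, and no ratio is drawn from these 3 genes.

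Different probes of the same aquaporin gene often disagreed. Of the 14 aquaporin genes with several tested probes, 10 (71.4%) had probe means of both signs, against 43.7% of the 6495 such genes on the array. The aquaporin genes had more probes, with a median of 4.5 per gene against 2, which by itself gives more chances of both signs. Within a gene, the lowest and highest probe means lay a median of 0.34 log2 units apart, against 0.16 for all such genes. A range also widens with more probes, and these medians are not matched for probe number. The probes of PIP1-2 ran from -0.36 to 0.17, those of PIP2-6 from -0.27 to 0.21 and those of PIP1-4 from -0.12 to 0.55. The highest PIP1-4 probe had 1.53 on array 4, against 0.20 to 0.26 on the other arrays. Only PIP1-1, PIP1-5, TIP2-1 and TIP2-3 had all tested probes on the same side of 0, in each case above it.

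When each of the 31106 tested probes was tested on its own, an alternative chosen after seeing the data, 5 of the 76 aquaporin probes were called higher and none lower by limma, against 1.28% higher and 1.64% lower over all probes (2.92% in either direction). They belonged to TIP2-3, TIP1-1, TIP2-1, NIP1-1 and PIP2-7. The called PIP2-7 probe was its dimmest, with log2 ratios of 0.46, 0.45, 0.29 and 0.57 and a mean of 0.44 (limma adjusted p 0.0365). The brightest probe of PIP2-7, at -0.08, lay on the other side of 0. Members of this family share long stretches of sequence, and probe cross-hybridization was not tested.

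**Figure D3:**
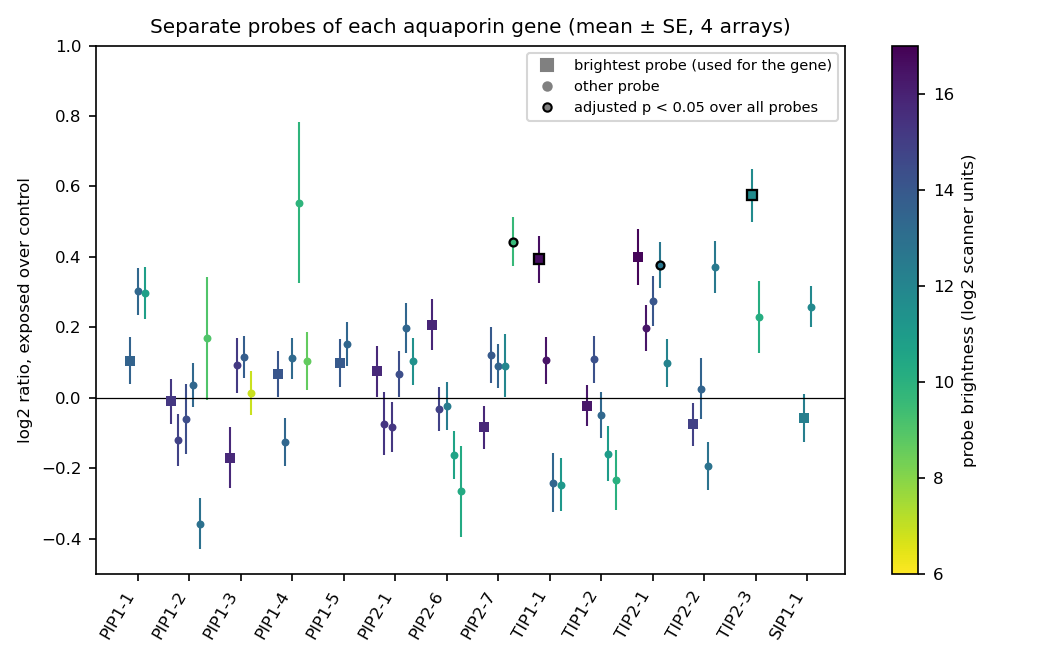
Mean log2 ratio of exposed over control, with its SE over 4 arrays, of every tested probe for the 14 aquaporin genes with several, ordered within a gene from the brightest (square) to the dimmest and coloured by brightness (log2 scanner units). TIP2-1 has all 5 probes above 0, whereas the 4 probes of TIP1-1 run from 0.39 to -0.25; black outlines mark adjusted p below 0.05 over all probes.

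The number of calls depended on which array was left out. Without array 4, 10 aquaporin genes were called higher and 2 lower by limma, or 31.2% and 6.25% of the 32, while 16.8% of all genes were called higher and 14.3% lower. In either direction the share was 37.5% of the aquaporin genes and 31.1% of all genes. The 4 genes called on 4 arrays were called in the same direction there. Those added were TIP2-1 at 0.38 (limma adjusted p 5.47e-04), TIP5-1 at 0.43 (5.3e-05), NIP3-1 at 0.36 (4.81e-04), NIP5-1 at 0.24 (0.00493), PIP2-3 at 0.24 (0.00533) and SIP1-2 at 0.21 (0.0225), all higher. Lower were TIP3-1 at -0.26 (limma adjusted p 0.00386) and PIP1-3 at -0.21 (0.0306). All 12 had the same sign in the fit of 4 arrays. Both fits hold arrays 1 to 3, so these agreements in direction are no separate support.

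Without array 1, 2 or 3 in turn, limma called no aquaporin gene and none of the 22690 genes. At an unadjusted p below 0.05 these fits counted 8, 7 and 7 aquaporin genes (25.0%, 21.9% and 21.9%), beside 15.8%, 17.1% and 15.4% of all genes. The fit of 4 arrays counted 9 (28.1%), beside 24.8% of all genes. The sizes moved little: TIP2-3 ranged from 0.54 to 0.64 over the fits with 1 array left out, NIP1-1 from 0.35 to 0.43, PIP2-4 from 0.35 to 0.48 and TIP1-1 from 0.36 to 0.44. Within the first slide (arrays 1 and 2) the means of TIP2-3, TIP1-1, PIP2-4 and NIP1-1 were 0.53, 0.36, 0.44 and 0.44. Within the second slide (arrays 3 and 4) they were 0.62, 0.43, 0.37 and 0.34. Each of the 4 genes was therefore positive within both slides, but the genes were called on these same arrays, so this is no separate support. With slide as a fixed block, chosen after seeing the data, limma called no aquaporin gene and 16 genes in all, with 8 aquaporin genes (25.0%) at an unadjusted p below 0.05, beside 25.7% of all genes.

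**Figure D4:**
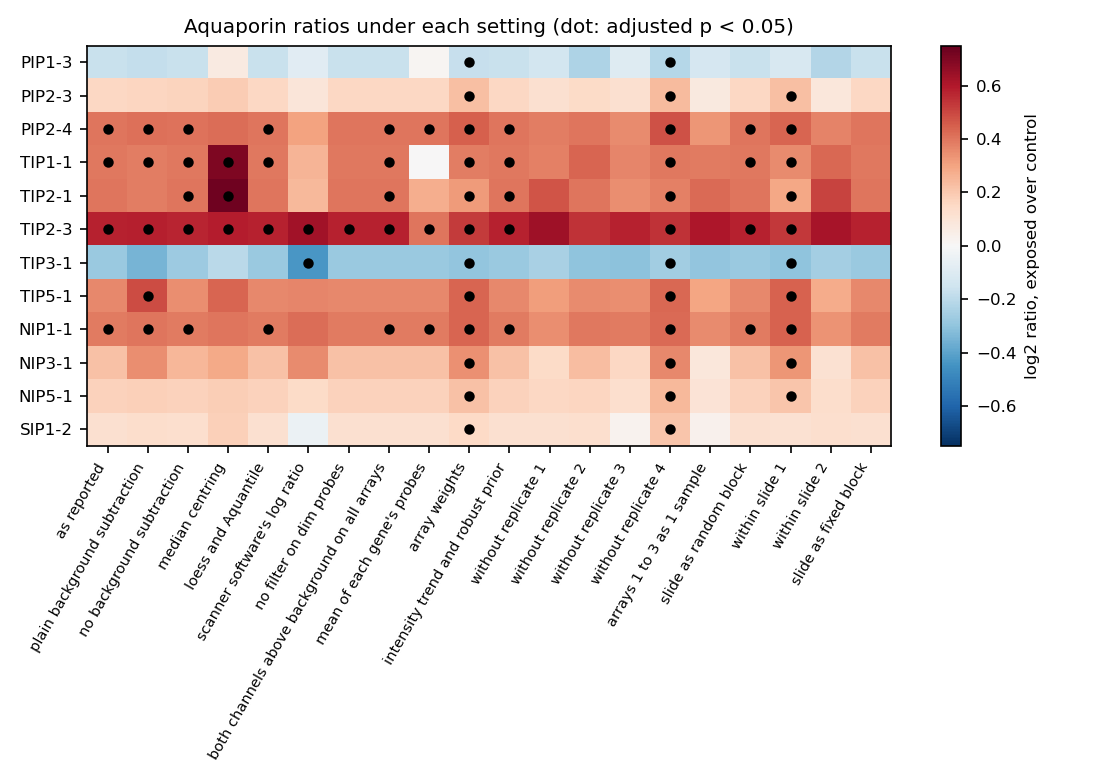
Log2 ratio of exposed over control (colour) of the 12 aquaporin genes called with all 4 arrays or without array 4, under the reported setting (leftmost) and 19 alternatives; dots mark adjusted p below 0.05. TIP2-3 is called in 13 of the 19 alternatives, more than the other genes shown, and removing array 1, 2 or 3 leaves no dot. Loess with Aquantile leaves each ratio and adjusted p as reported, so its dots repeat the reported setting. Slide as a random block, with a slide correlation of 0.008, also leaves the ratios as reported. The 13 are therefore not separate checks.

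Marker genes of organs show what moved beside these genes. All 7 root markers had positive ratios on all 4 arrays, with means from 0.11 to 0.61. Of them 2 rose, PYK10 at 0.61 (limma adjusted p 0.0164) and PRP3 at 0.44 (0.0295), and the median was 0.34. Their summed normalized signal was 158138 to 167994 in control RNA and 226278 to 254655 in exposed RNA, with no overlap. Among the aquaporin genes described here as known from roots, NIP1-1, PIP2-4 and NIP5-1 averaged 0.39, 0.40 and 0.17. PIP2-2, TIP2-2 and TIP4-1 averaged 0.0015, -0.07 and -0.03. PIP1-2, described as a leaf and root channel, averaged -0.01, and no organ is given here for TIP2-3, at 0.57. The part of root share in these ratios was not tested.

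Of the 6 shoot markers 4 rose (RBCS1A 0.49, RBCS2B 0.55, LHCB1.3 0.50 and PSBO1 0.49), LHCB2.1 fell by 0.54 on the log2 scale and PSAD1 was at -0.03. PSBO1 was measured on 3 arrays. The summed signal of the 5 shoot markers measured on all arrays was 674329 to 701210 in control RNA and 914165 to 984625 in exposed RNA. The 4 shoot markers that rose had a brightness of 17.6 to 17.9, in the band where 20.9% of all genes were called higher, and LHCB2.1, which fell, had 8.86. In the root sum PYK10 was by far the brightest, at 17.5 against 10.4 to 12.6 for the other root markers. None of the 5 seed markers was called, and their sum was 1341 to 3806 in control RNA and 1336 to 8162 in exposed RNA. The seed markers OLEO1, EM1 and EM6 had 1.00, 1.36 and 1.35 on array 4, and CRA1 and CRU3 had -0.49 and -0.18 there. TIP3-1, known from seeds, was negative on that array as on the others. Of the 4 pollen markers 3 were too dim to test, and AGP6 averaged -0.01, beside the positive ratios of TIP5-1.

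**Figure D5:**
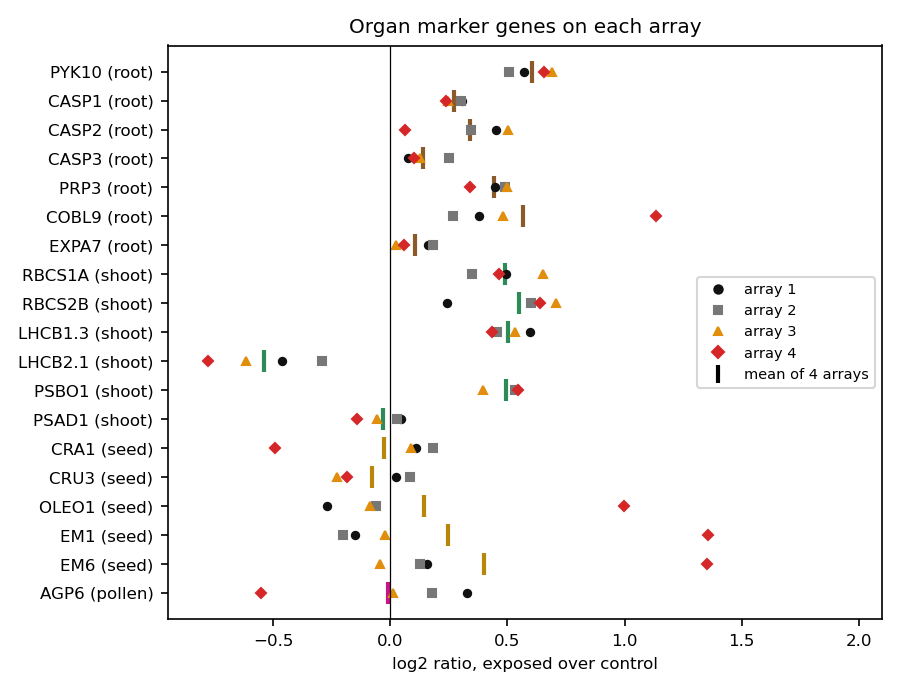
Log2 ratio of exposed over control for the 19 organ marker genes that could be tested, with 1 point per array and a tick for the mean. All 7 root markers lie to the right of 0 on each array, 4 of the 6 shoot markers do so as well, and array 4 stands apart for the seed markers OLEO1, EM1 and EM6.

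The genes known to act on aquaporins or beside them were read from a list of 24, all tested. Of these 2 rose and none fell, against 1.58% and 1.82% of all genes. RMA3, which belongs to a family of ubiquitin ligases of the endoplasmic reticulum known to act on PIP2 proteins, had log2 ratios of 0.36, 0.53, 0.43 and 0.22. All arrays were positive, and the mean was 0.38 (SE 0.072, n = 4) with a limma adjusted p of 0.0465. Its relatives RMA1 and RMA2 averaged 0.01 and 0.09. BCA1, a carbonic anhydrase of the chloroplast, had 0.35, 0.31, 0.46 and 0.30. Its mean was 0.35 (SE 0.062, n = 4) with a limma adjusted p of 0.0418, on a probe of brightness 16.8, within the band where 20.9% of genes were called higher.

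SYP61, a syntaxin involved in carrying PIP2-7 to the plasma membrane, had -0.35, -0.22, -0.37 and -0.25, and was negative on all 4 arrays. Its mean of -0.30 (SE 0.062, n = 4) had a limma adjusted p of 0.0578 and was not called. The kinases OST1 and BAK1, which act on PIP2-1 in guard cells, averaged -0.28 and 0.04, both with array 4 far from the other arrays. The oxidases RBOHD and RBOHF, sources of the apoplastic superoxide that gives rise to hydrogen peroxide, averaged -0.18 and -0.23 and were not called. RBOHF had -0.68 on array 4 and -0.15 to -0.01 on the other arrays, and its mean without array 4 was -0.08. The boron exporter BOR4, at -0.0038, passed the filter through the exposed channel and was well above background in control RNA on 2 arrays only. Counting BOR4, 10 of the 24 lay above 0 and 14 below, with a median of -0.05. Without array 4, 3 were called higher (BCA1, RMA3 and QSK1) and 4 lower (HCR1, AVP1, SYP61 and AHA1) by limma, beside 16.8% and 14.3% of all genes.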

How the data were processed

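Each deposited scanner file lists the linear intensity of 45220 spots. The software was Agilent Feature Extraction, version 11.5.1.1 per the file headers and version 8.5.1.1 per the submitters' processing notes. Its deposited log10 ratio of Cy5 over Cy3, already corrected for background and dye, served as an alternative on the log2 scale. The authors' deposited log2 matrix was not used. With a tolerance of 0.001, only the array 1 column held log2 of exposed over control at all 45220 spots. The columns of arrays 2 to 4 held the log2 ratio of the error of the Cy3 signal to the Cy5 signal, with medians of -3.17, -3.17 and -3.19.

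The analysis used limma 3.58.1 in R 4.3.3. Median spot signal and median local background were corrected by normexp (offset 50) and normalized by loess within arrays, where control spots and outliers (19, 19, 13 and 142 spots on arrays 1 to 4) had weight 0. A probe entered the test if 1 channel marked it well above background on 3 or more arrays, and the brightest tested probe stood for its gene. Since 97.2% and 99.6% of gene spots passed in the Cy3 and Cy5 channels of array 4, against 75.1% to 78.9% elsewhere, this filter rested mostly on arrays 1 to 3. No gene spot was saturated. Ratios were tested against 0 with lmFit and eBayes, two-sided, with Benjamini-Hochberg adjustment over 22690 genes and a threshold of 0.05. Intervals are 95% intervals of that fit. Normalized signals per channel come from loess followed by Aquantile.

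The aquaporin genes and the partner and marker lists were chosen with earlier results of these data known. Every aquaporin gene is named. Values on each array are given for those with an adjusted p below 0.05 with all 4 arrays or without array 4. Partner genes are named when called or among the 3 of lowest p, and OST1, BAK1, BOR4, RMA1, RMA2, RBOHD and RBOHF were added after their values were seen. Organ markers are described by their summed signal. The loci were matched to symbols and gene order in the RefSeq table of the TAIR10.1 assembly, and no coordinates are printed because the file headers give another annotation.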

Additional observations from a re-analysis of the deposited data

Results flagged for a closer look

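Of 80 values checked for an array far from the other arrays of the group, 6 were beyond Dixon's 95% limit, and chance alone gives about 1 in 20. For the SIP class, the median log2 ratio was 0.073 on array 2, against -0.12 to -0.11 on the other arrays. Array 4 stood apart for the boron exporter BOR1, at -0.28 against -0.0084 to 0.03. It also stood apart for 4 of the 5 seed markers. These were CRA1 at -0.49 against 0.09 to 0.18, OLEO1 at 1.00 against -0.27 to -0.06, EM1 at 1.36 against -0.20 to -0.02 and EM6 at 1.35 against -0.05 to 0.16. No single aquaporin gene was beyond the limit.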

How the results depend on the processing

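Over the alternatives, 65 of the values that answer a comparison stayed within the spread or within 1.5 times the reported count, and 32 moved. Some of the 65 could not move. Loess followed by Aquantile leaves every ratio as reported, and a count of 0 lower stays 0 in settings where no gene at all was called. The 65 are therefore no measure of stability. By limma, aquaporin genes called higher and lower numbered 4 and 0 as reported, 1 and 1 with the scanner software's log ratio, 1 higher without the filter on dim probes, and 13 and 2 with array weights, where 36.5% of all genes were called (19.5% higher). They numbered 12 and 1 within the first slide, where 35% of all genes were called (19.0% higher), and none within the second slide, with arrays 1 to 3 averaged to 1 sample, or with slide as a fixed block, the last chosen after seeing the data. The last 3 settings had 3, 3 and 8 aquaporin genes at an unadjusted p below 0.05 (9.38%, 9.38% and 25.0%), beside 8.83%, 5.82% and 25.7% of all genes. Leaving out 1 array in turn gave 0 to 10 higher and 0 to 2 lower. Partner genes called higher numbered 1 with median centring, 1 after averaging a gene's probes, 0 from the scanner software's log ratio, 0 without the filter, 4 with array weights (5 lower) and 4 within the first slide (4 lower). With an intensity trend and robust prior 3 partner genes were lower, and none was called with the second slide alone, merged arrays or a fixed block. Leaving out 1 array gave 0 to 3 partner genes higher and 0 to 4 lower.

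The family's median log2 ratio was 0.18 with median centring, which moved the all-gene median to 0.03, and 0.05 to 0.09 with 1 array left out. Over all genes, median centring called 166 higher and 50 lower, against 358 and 414 as reported. Other counts over all genes that moved by more than 1.5 times were 16 with slide as a fixed block, 292 without the filter, 2196 with the trend and robust prior, 7054 without array 4, 7945 within the first slide and 8275 with array weights, and 0 without array 1, 2 or 3, within the second slide or with merged arrays. The ratio turned sign in at least 1 alternative for 13 of the 32 aquaporin genes, none of them called as reported. With median centring these were PIP1-2 (0.19), PIP1-3 (0.070), PIP2-7 (0.16), TIP1-2 (0.27) and TIP2-2 (0.098). With the mean of a gene's probes they were PIP1-3 (0.013), PIP2-6 (-0.055), PIP2-7 (0.13), TIP2-2 (0.032) and SIP1-1 (0.10). From the scanner software's log ratio they were PIP2-1 (-0.069), SIP1-1 (0.0075) and SIP1-2 (-0.045). Array weights or a change in the arrays used turned PIP1-2, PIP2-1, PIP2-2, TIP4-1, NIP1-2 and NIP7-1, to values between -0.13 and 0.05. The cause of these changes was not tested. The test of each array's ratio against 0 already pairs the control and exposed RNA of that array, so no separate paired analysis was run.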
